A study of Mus musculus with 18 samples.

Results

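The genes described here are 10 transcription factors and close partners that mark naive pluripotency in mouse embryonic stem cells (mESCs): *Esrrb*, *Klf2*, *Klf4*, *Klf5*, *Tfcp2l1*, *Tbx3*, *Prdm14*, *Zfp42*, *Dppa3* and *Nr0b1*. They were chosen by name, as 10 of the 18659 genes of the deposited expression table, and each was compared with the scrambled siRNA library of its own replicate set. All 10 were listed in the table and all 10 passed the filter on low values, in every comparison.

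Naive mESCs hold themselves in a self-renewing state through a network of transcription factors that bind the same enhancers and sustain each other's expression. LIF feeds this network through Stat3, inhibition of Gsk3 feeds it by relieving repression through Tcf7l1, and FGF signalling through ERK works against it. In serum and LIF the expression of these factors varies from cell to cell, and it is lost when cells move toward the primed state.

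Male E14 mESCs were grown in serum (FCS) with LIF and, apart from an untreated library, transfected for 24 h with siRNA, after which rRNA-depleted total RNA was sequenced from 16 libraries in 3 replicate sets. The targeted gene was *Stag1*, which encodes the cohesin subunit STAG1, and the study asked how knockdowns (KDs) that reach different *Stag1* transcripts act on pluripotency. SP is a commercial pool of siRNAs to *Stag1*, 3p is a mix of 3 commercial siRNAs to the 3′ end of its mRNA, 5p is a single custom duplex to the 5′ end, and SATS is a mixture of enzymatically derived siRNAs to the SATS 5′ UTR, an upstream leader of some *Stag1* transcripts. By their catalogue numbers in the study's methods, the siRNAs of 3p are all among those of SP. Controls were scrambled siRNA (scr), luciferase siRNA and untreated cells, all of the same cell line and medium. Set 1 consists of scr once and SP as 3 libraries (1a, 1b and 1c). Sets 2 and 3 each hold scr, SP, 3p, 5p and SATS once, with an untreated library added in set 2 and a luciferase siRNA library in set 3. How 1a, 1b and 1c differed is not given in the sources used here, and the labels do not say whether the sets came from separate cultures. The study calls its replicates independent without saying in what. With the set as a block, the p-values measure how far differences between siRNAs vary from set to set. That variation may be technical in part.

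The KD was visible in every library labelled as one. *Stag1* stood at normalised read counts of 1876 and 2113 in scr of sets 2 and 3, and at 406 and 371 under SP, 392 and 365 under 3p, 441 and 401 under 5p, and 947 and 1051 under SATS. Its log2 differences from scr were −2.36 (SP), −2.39 (3p), −2.24 (5p) and −0.996 (SATS), so the SATS KD left more *Stag1* RNA than the other 3. Sets 2 and 3 held 32137666 to 45660840 reads on genes per library, and set 1 held 9023224 to 14040830, of which the ribosomal precursor *Rn45s* took 69.2% to 79.1%. The set 1 libraries therefore stood apart in depth and content, with 1883691 to 4321867 reads outside *Rn45s*, and the comparison of the 4 siRNAs was made in sets 2 and 3.

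The ESC markers *Pou5f1* (7128 to 9193), *Sox2* (2191 to 3634) and *Nanog* (2011 to 4075) were high in all 12 libraries of sets 2 and 3. Summed over their lists, primitive endoderm markers (7 genes) ranged from 286 to 355 in the controls and 281 to 357 in the KDs of set 2, and from 196 to 200 and 200 to 266 in those of set 3. Mesoderm markers (6 genes) ranged from 465 to 476 and 402 to 423 in set 2, and from 542 to 593 and 416 to 621 in set 3. The other lists were fibroblast (6 genes; 2904 to 5754 and 2614 to 3686 in set 2, 402 to 576 and 379 to 555 in set 3), neural (5 genes; 3322 to 3689 and 2946 to 3890, 3033 to 3237 and 1838 to 3298), and trophoblast markers (5 genes; 929 to 941 and 774 to 890, 527 to 583 and 434 to 532). Markers of two-cell-like cells (7 genes) ranged from 176 to 254 and 221 to 246 in set 2, and from 31.7 to 48.8 and 48.9 to 75.4 in set 3. *Neurog2* was at 0 in 1 of the 12 libraries and *Elf5*, a trophoblast marker, in 2, and *Tcstv1*, a two-cell marker, in 5. The fibroblast sum was thus several times higher in set 2 than in set 3, in controls and KDs alike. Not every gene of that list varied so widely. Over the 12 libraries *Col1a1* ranged from 155 to 4627, but *Thy1* from 36.1 to 58.2 and *Dcn* from 2.14 to 6.29. The part of these genes in the results below was not tested.

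The positions below are those of GRCm38 (mm10), in which the whole gene, exons and introns, runs between the given bases. On the forward strand lie *Esrrb* (chr12:86361117-86521628), *Klf2* (chr8:72319033-72321656), *Klf5* (chr14:99298691-99315036), *Tfcp2l1* (chr1:118627945-118685168), *Tbx3* (chr5:119670669-119684724), *Dppa3* (chr6:122626410-122630272) and *Nr0b1* (chrX:86191764-86195947). On the reverse strand lie *Klf4* (chr4:55527143-55532466), *Prdm14* (chr1:13113457-13127163) and *Zfp42* (chr8:43295063-43306980). *Tfcp2l1* shares 130 exonic bases with the small nuclear RNA gene *Gm23497*, and *Tbx3* shares 115 with the antisense transcript *Tbx3os1*. Transcripts of the copies *Dppa3-ps* and *Zfp42-ps1* align to *Dppa3* over 451 bases at 98.2% identity and to *Zfp42* over 266 bases at 98.1%, and neither copy is listed in the table, so reads of these pairs may have been split or dropped in counting.

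Promoters were found in the RefSeq set (GRCm38.p6) for 6 of the 10 members. The 250 bases upstream of the start are shown for *Tfcp2l1*, which was called under SP and SATS, for *Nr0b1*, which was called between siRNAs, and for *Esrrb* and *Zfp42*, which hold a motif of an upstream regulator. For *Esrrb* the first of its 2 starts is used. All run 5′ to 3′ on the gene's strand, and capitals mark matches to the Klf motif GGGNGTGG or the Stat motif TTCNNNGAA on either strand.
*Tfcp2l1*, chr1:118627695-118627944, forward: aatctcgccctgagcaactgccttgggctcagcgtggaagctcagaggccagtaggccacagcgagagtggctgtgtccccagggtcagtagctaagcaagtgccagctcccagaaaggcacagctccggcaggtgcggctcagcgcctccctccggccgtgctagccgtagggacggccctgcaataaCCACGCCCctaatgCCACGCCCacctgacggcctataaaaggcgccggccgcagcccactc
*Zfp42*, chr8:43307010-43307259, reverse: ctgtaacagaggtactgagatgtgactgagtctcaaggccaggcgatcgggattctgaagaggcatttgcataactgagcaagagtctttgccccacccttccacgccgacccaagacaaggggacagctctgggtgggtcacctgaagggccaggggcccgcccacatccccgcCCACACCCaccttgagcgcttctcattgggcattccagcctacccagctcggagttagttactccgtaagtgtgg
*Esrrb*, chr12:86360867-86361116, forward: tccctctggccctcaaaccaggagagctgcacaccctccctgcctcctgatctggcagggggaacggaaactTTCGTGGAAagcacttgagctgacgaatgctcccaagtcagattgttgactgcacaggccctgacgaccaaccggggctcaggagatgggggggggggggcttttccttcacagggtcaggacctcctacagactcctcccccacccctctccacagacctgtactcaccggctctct
*Nr0b1*, chrX:86191525-86191774, forward: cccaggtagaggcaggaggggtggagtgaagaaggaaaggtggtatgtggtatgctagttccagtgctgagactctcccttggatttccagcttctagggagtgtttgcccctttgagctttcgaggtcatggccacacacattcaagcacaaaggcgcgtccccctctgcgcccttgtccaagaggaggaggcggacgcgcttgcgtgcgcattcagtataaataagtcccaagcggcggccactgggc
The Klf motif was held by 2 of the 6 members, *Tfcp2l1*, with 2 matches, and *Zfp42*, and by 15.9% of all 32851 promoters of the set over the same 250 bases. The Stat motif was held by 1 of the 6, *Esrrb*, and by 7.02% of all promoters. The Esrrb motif AAGGTCA (4.08% of all promoters) and the spaced Tfcp2l1 motif (2.78%) were in none of the 6. The second start of *Esrrb*, not shown, held 0 matches. Counted by promoter, as the shares are, the Klf motif was in 2 of 7 and the Stat motif in 1 of 7. These are matches of letters in the stretch shown and not sites of binding.

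In scr the members differed widely in level. Per kb of exon sequence, normalised read counts averaged 2434 ± 1223 (SD, n = 3 sets) for *Zfp42*, 1081 ± 657 for *Klf2*, 901 ± 600 for *Esrrb* and 745 ± 428 for *Nr0b1*. *Tfcp2l1* followed at 588 ± 268, *Klf5* at 514 ± 232, *Klf4* at 485 ± 308, *Tbx3* at 197 ± 200, *Dppa3* at 172 ± 125 and *Prdm14* at 75.9 ± 52.2. Of the 9 neighbouring pairs in this order, 1 (*Zfp42* over *Klf2*) was further apart than the larger SD of the pair, although *Zfp42*, *Klf2*, *Esrrb*, *Nr0b1* and *Tfcp2l1* held ranks 1 to 5 in each of the 3 sets. The SDs are large because the sets differed: all 10 members were lower in scr of set 3 than in scr of set 2, at 77.3% for *Prdm14*, 71.8% for *Klf2* and 57.3% to 64.0% for *Esrrb*, *Klf5*, *Tfcp2l1*, *Zfp42*, *Dppa3* and *Nr0b1*, but at 45.8% for *Klf4* and 29.0% for *Tbx3*. Set 1 stood higher still for 9 members, at 151% (*Tfcp2l1*) to 322% (*Tbx3*) of set 2, while *Dppa3* stood at 15.3%, on 6 reads. Every comparison below was therefore made within sets, with the set as a block in the fit.

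**Figure D1:**
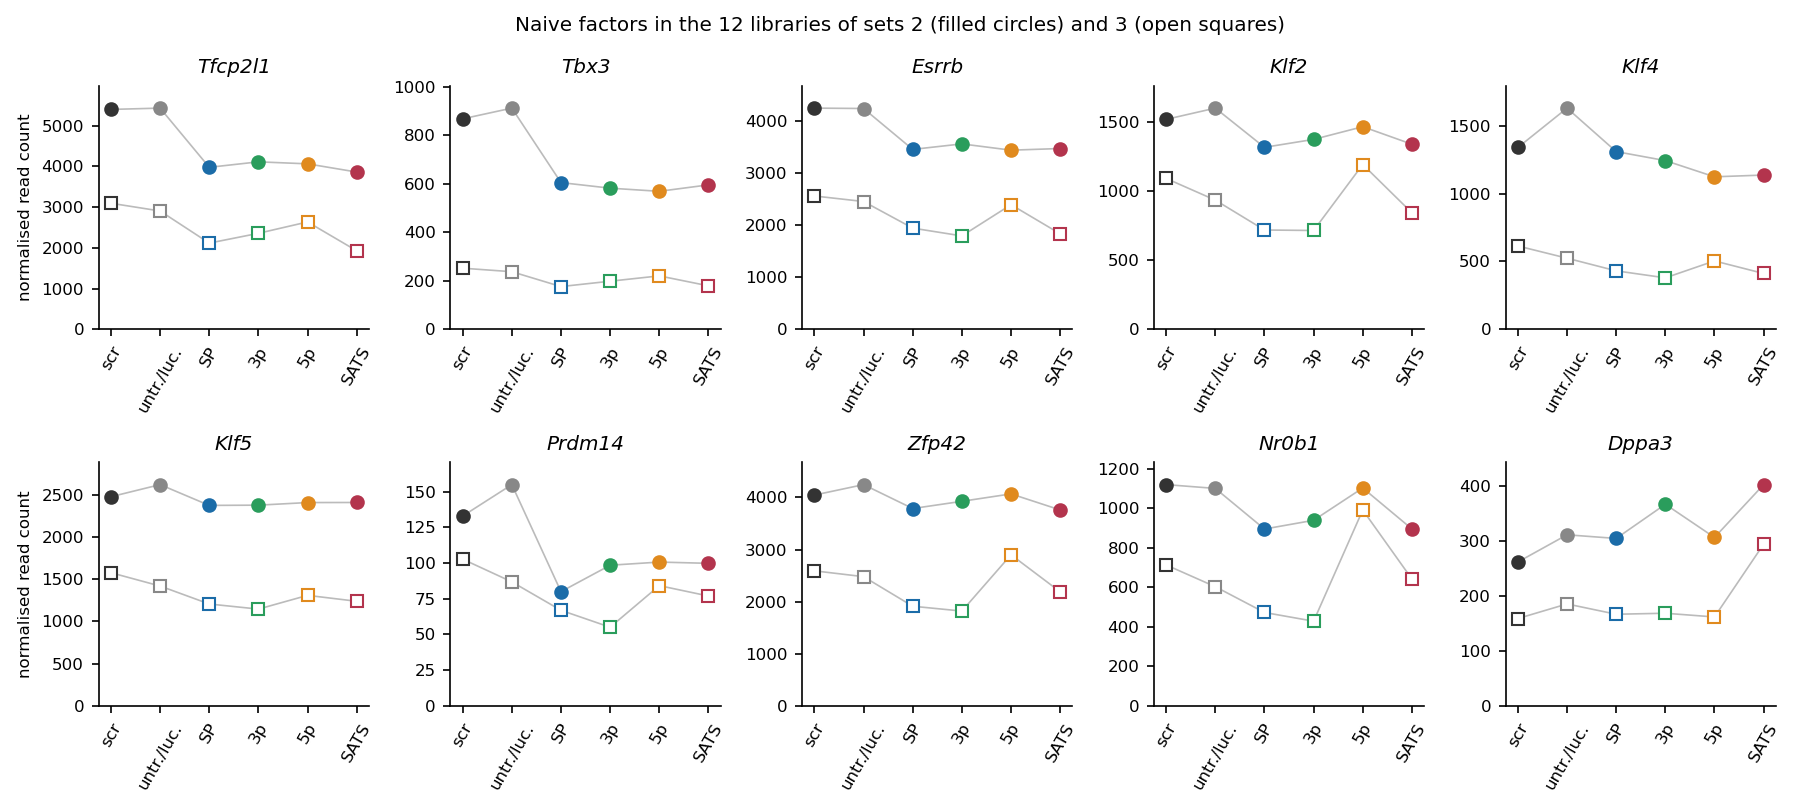
Normalised read count (linear axis from 0) of each naive factor in the 12 libraries of sets 2 (filled circles) and 3 (open squares), by siRNA. The second place on the axis is the untreated library in set 2 and the luciferase library in set 3, and grey lines only join libraries of 1 set. SP, 3p and SATS lie below both controls of their set for *Tfcp2l1*, *Tbx3*, *Esrrb*, *Klf2*, *Klf4*, *Klf5*, *Prdm14* and *Zfp42*, and 5p of set 3 lies above them for *Klf2*, *Zfp42* and *Nr0b1*.

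Under SP, 3p and SATS, 9 of the 10 members were lower than scr in both sets, and the tenth, *Dppa3*, was higher in both. Under 5p, 6 were lower in both sets, *Zfp42* and *Dppa3* were higher in both and *Klf2* and *Nr0b1* split between the sets. Among the 11058 genes whose mean value reached 50, the share lower in both sets was 30.2% under SP, 30.3% under 3p, 33.5% under 5p and 35.1% under SATS. The median log2 difference of the members was −0.38 under SP, −0.39 under 3p, −0.18 under 5p and −0.33 under SATS, where the median of all genes tested lay at 0.00, 0.00, 0.01 and 0.00. On this scale, log2(value + 1), the SP median is 77.1% of scr. In bulk RNA, fewer cells in the naive state and less RNA of these genes per cell cannot be told apart.

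The controls bound these differences. Untreated cells of set 2 stood at −0.02 to +0.28 from scr over the members other than *Dppa3*, with 2 of these 9 below scr, whereas luciferase siRNA of set 3 stood at −0.24 to −0.06, with all 9 below. In set 3 these members were thus below scr also with an siRNA that does not target *Stag1*. Against both controls of each set, 9 members were lower in both sets under SP and under 3p, 8 under SATS (not *Dppa3* or *Nr0b1*) and 6 under 5p (not *Klf2*, *Zfp42*, *Dppa3* or *Nr0b1*), where 21.2%, 19.6%, 25.5% and 23.1% of all genes were. *Dppa3* was above scr by 0.25 and 0.22 in untreated and in luciferase-treated cells, about as far as in SP of set 2.

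By limma with the set as a block and Benjamini-Hochberg adjustment over all 16490 genes, SP changed 2 of the 10 members, where 0.746% of all genes were called. SATS changed 3 of 10, where 2.64% of all genes were called. No member was called under 3p, where 0.285% of all genes were, or under 5p, where 2.37% were. At an unadjusted p under 0.05, 9 members passed under SP, 9 under 3p, 4 under 5p and 7 under SATS, where 12.5%, 10.4%, 15.7% and 18.8% of all genes did. edgeR on the recovered reads with the same block also called 2 members under SP, 0 under 3p, 0 under 5p and 3 under SATS. All 4 comparisons share the same 2 scr libraries. With the untreated and luciferase libraries counted with scr, *Tfcp2l1* and *Tbx3* were called under all 4 siRNAs and *Esrrb* under SP, 3p and SATS. *Prdm14* was then called under SP and 3p, and *Klf4* and *Dppa3* under SATS. Calls rose among all genes too, to 2.32% (SP), 1.31% (3p), 6.71% (5p) and 10.7% (SATS). Without the block, which leaves the differences between sets in the spread, no member was called in any comparison that could be fitted and none passed an unadjusted p under 0.05.

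With the set as a block and scr as the only control, *Tfcp2l1* and *Tbx3* were the members called lower, both under SP and SATS. *Prdm14* had lower estimates under SP and 3p (−0.67 and −0.66), without a call. LIF signalling is known to sustain *Tfcp2l1* and *Tbx3*. *Tfcp2l1*, a CP2-family factor downstream of Stat3, stood at 5401 in scr of set 2 and 5433 in untreated cells, and at 3979 (SP), 4113 (3p), 4064 (5p) and 3863 (SATS). In set 3 it stood at 3096 in scr and 2906 with luciferase siRNA, and at 2117 (SP), 2357 (3p), 2637 (5p) and 1928 (SATS). All 8 KD libraries were below both controls of their set. The log2 difference was −0.49 ± 0.09 (SE; limma adjusted p = 0.019) under SP and −0.58 ± 0.09 (adjusted p = 0.0131) under SATS. Under 3p it was −0.39 (adjusted p = 0.0834) and under 5p −0.32 (adjusted p = 0.0718), both without a call. The SP call was lost without scr or SP of either set (adjusted p of *Tfcp2l1* 0.102 to 0.291), and the SATS call without scr of set 2, scr of set 3 or SATS of set 3 (0.0898, 0.188 and 0.254). Under 3p, *Tfcp2l1* was called by limma without 5p of set 2 or of set 3 (adjusted p = 0.0481 and 0.049).

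*Tbx3*, a T-box factor, stood at 868 in scr of set 2 and 912 in untreated cells, and at 605, 582, 569 and 595 under SP, 3p, 5p and SATS. In set 3, where its level was lower, it stood at 252 in scr and 237 with luciferase siRNA, and at 176, 198, 220 and 179. Again all 8 KD libraries were below both controls. The log2 difference was −0.52 ± 0.11 under SP (limma adjusted p = 0.0477) and −0.52 ± 0.11 under SATS (adjusted p = 0.0297). It was −0.46 under 3p (adjusted p = 0.1) and −0.40 under 5p (adjusted p = 0.0735). The SP call on *Tbx3* was the least firm of all, with a limma adjusted p of 0.0518 for *Tbx3* at a pseudocount of 0.1, 0.0581 at a pseudocount of 10 and 0.0534 with a filter at a mean of 50. Without the scr or the SP library of either set its adjusted p ran from 0.168 to 0.483, and without the SATS library of set 2 or 3 it was 0.0554 and 0.0524. The SATS call on *Tbx3* was lost without scr of set 2, scr of set 3 or SATS of set 3 (adjusted p = 0.206, 0.242 and 0.378).

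**Figure D2:**
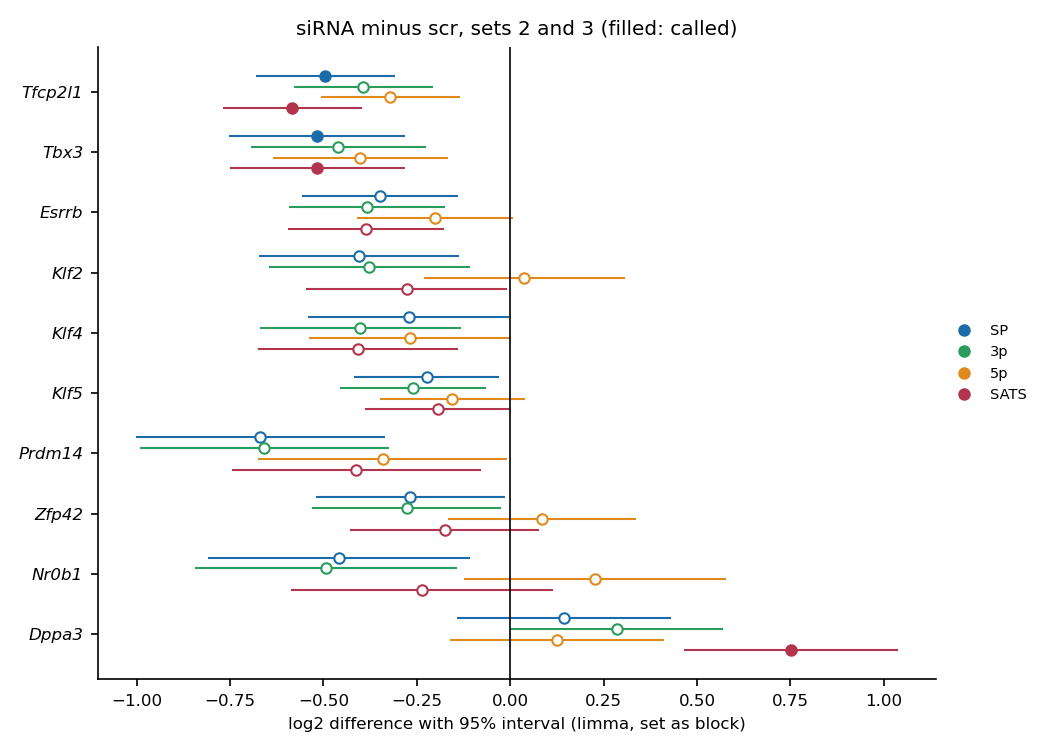
Log2 difference from scr of each naive factor under SP, 3p, 5p and SATS over sets 2 and 3, with 95% intervals from limma with the set as a block. Filled points are called at an adjusted p under 0.05: *Tfcp2l1* and *Tbx3* under SP and SATS, and *Dppa3* under SATS. For *Klf2*, *Zfp42* and *Nr0b1* the 5p point lies above 0, apart from the other 3.

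*Esrrb*, an orphan nuclear receptor of the Gsk3 and Tcf7l1 arm, stood at 4255 in scr and 3446 to 3567 in the 4 KD libraries of set 2. In set 3 it stood at 2564 in scr and 1946 (SP), 1796 (3p), 2397 (5p) and 1837 (SATS). No KD library reached the controls of its set. Its log2 differences were −0.35 (SP), −0.38 (3p), −0.20 (5p) and −0.39 (SATS), and under SATS it came nearest to a call (limma adjusted p = 0.0518). *Esrrb* was called under SATS without 1 of 5 single libraries (3p or 5p of either set, or SATS of set 2) and when values were scaled to reads without *Rn45s* (log2 difference −0.42).

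The Krüppel-like factors *Klf2*, *Klf4* and *Klf5* bind overlapping sites and can stand in for each other in ESC self-renewal. *Klf4*, the one most directly tied to Stat3, stood at 1340 in scr and 1124 to 1310 in the KD libraries of set 2, and at 614 in scr and 379 to 504 in those of set 3. *Klf5* stood at 2479 in scr and 2376 to 2411 in the KDs of set 2, and at 1578 and 1147 to 1310 in set 3. By estimate over both sets it was the least lowered of the 3 under SP, 3p and SATS, but not under 5p. *Klf2*, which ERK signalling destabilises as a protein, stood at 1522 in scr of set 2 and at 1319 (SP), 1376 (3p), 1469 (5p) and 1341 (SATS). In set 3 it stood at 1093 in scr and at 720 (SP), 716 (3p), 1194 (5p) and 844 (SATS), so 5p of set 3 was the 1 KD library above scr. The log2 differences of *Klf2* were −0.40 (SP), −0.38 (3p), 0.04 (5p) and −0.28 (SATS), those of *Klf4* were −0.27, −0.40, −0.27 and −0.41, and those of *Klf5* were −0.22, −0.26, −0.15 and −0.19. None of the 12 was called by limma, with adjusted p from 0.0946 to 0.925. *Klf4* under SATS, the lowest of these, was called without 3p of set 2 or of set 3 (adjusted p = 0.0438 and 0.0424).

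*Nr0b1*, an X-linked orphan nuclear receptor (Dax1) that binds Oct4, differed most between the siRNAs. In set 2 it stood at 1119 in scr, 1100 in untreated cells and 1102 under 5p, against 895 (SP), 939 (3p) and 895 (SATS). In set 3 it stood at 713 in scr, 603 with luciferase siRNA and 991 under 5p, against 472 (SP), 428 (3p) and 642 (SATS). In both sets 5p was the highest of the 4 KDs, and in set 3 it was above both controls. The log2 differences from scr were −0.46 ± 0.16 (SP), −0.49 ± 0.16 (3p), 0.23 ± 0.16 (5p) and −0.24 ± 0.16 (SATS), with no call. *Zfp42* (Rex1), the zinc finger gene used as a reporter of the naive state, ran the same way at a smaller size. It stood at 4045 in scr and at 3787 (SP), 3925 (3p), 4068 (5p) and 3760 (SATS) in set 2, and at 2591 in scr and at 1911, 1818, 2899 and 2188 in set 3. Its log2 differences were −0.27, −0.28, 0.08 and −0.17, with adjusted p from 0.373 to 0.783 by limma.

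The remaining 2 members are also germline genes and were the lowest in level with *Tbx3*. *Prdm14*, a PR-domain repressor of FGF signalling and of DNA methylation enzymes, had the lowest estimates of all members under SP and 3p. It stood at 133 in scr, 155 in untreated cells and 80.0 (SP), 98.5 (3p), 101 (5p) and 99.8 (SATS) in set 2, and at 103 in scr, 86.8 with luciferase siRNA and 66.9, 55.1, 84.2 and 76.9 in set 3. All 8 KD libraries were below both controls. The log2 differences were −0.67 ± 0.15 (SP), −0.66 ± 0.15 (3p), −0.34 ± 0.15 (5p) and −0.41 ± 0.15 (SATS), and the smallest limma adjusted p was 0.0688, under SP. *Prdm14* was called under SP without 3p of set 2 or of set 3 (adjusted p = 0.0278 and 0.0235), and under 3p, at −0.92, without 3p of set 2 (adjusted p = 0.0336).

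*Dppa3* (Stella), which guards DNA methylation marks in the germline and early embryo, went the other way. It stood at 262 in scr, 312 in untreated cells and 305 (SP), 367 (3p), 307 (5p) and 403 (SATS) in set 2. In set 3 it stood at 159 in scr, 186 with luciferase siRNA and 167, 169, 162 and 295. SATS was thus the highest library in both sets, and in set 3 the other 3 KDs lay between scr and luciferase. The log2 difference was 0.75 ± 0.13 under SATS (limma adjusted p = 0.019), against 0.14 (SP), 0.28 (3p) and 0.13 (5p), which were not called. Without SATS of set 3 the difference was 0.53 and was not called (limma adjusted p = 0.361). Without scr of set 2 or set 3 the *Dppa3* call was lost too, at 0.69 and 0.81 (adjusted p = 0.137 and 0.229).

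The order of the siRNAs was read from their direct differences, in 6 pairs. By estimate, 5p lowered 9 of the 10 members least, all but *Dppa3*. SP gave the lowest estimate for *Klf2*, *Tbx3* and *Prdm14*, 3p for *Klf5*, *Zfp42* and *Nr0b1*, and SATS for *Esrrb*, *Klf4* and *Tfcp2l1*. This order was not the same in the 2 sets: 5p was the least lowering for 9 members in set 3 but for 4 in set 2, and the most lowering siRNA was the same in both sets for 1 member, *Tfcp2l1*, under SATS. Of the 60 tests over 6 pairs and 10 members, 4 were called.

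3p and SP, which share siRNAs and so are not independent reagents, were the most alike in estimate. Their differences ran from −0.13 (*Klf4*) to 0.14 (*Dppa3*), no member was called, none passed an unadjusted p under 0.05 (6.02% of all genes did) and edgeR called 0, where 0.097% of all genes were called. The intervals nonetheless allow sizeable differences, for example −0.32 to 0.34 for *Prdm14* and −0.18 to 0.29 for *Tbx3*. Between SATS and 3p no member was called either, where 3.06% of all genes were. *Dppa3* was 0.47 higher under SATS (95% interval 0.18 to 0.75; limma adjusted p = 0.0739). *Tfcp2l1* stood at −0.19 for SATS minus 3p (−0.377 to −0.0039; limma adjusted p = 0.269). There, 2 of the 10 members passed an unadjusted p under 0.05, as did 17.9% of all genes, and edgeR called 0. Leaving out 3p or SATS of set 2 moved the number of members called, and the share of all genes called there was not taken.

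Between 5p and SP, and between 5p and 3p, 1 member of 10 was called, which does not set the members apart from all genes. The member was *Nr0b1*. It was higher under 5p than under SP by 0.68 (95% interval 0.33 to 1.03; limma adjusted p = 0.0261), the 1 member called where 5.76% of all genes were. Against 3p it was higher by 0.72 (0.37 to 1.07; adjusted p = 0.0277), again the 1 member called, where 3.26% of all genes were. The size came mostly from set 3, since without 5p of set 3 these differences were 0.36 and 0.40, with limma adjusted p of 0.353 and 0.44. Without scr of set 2 or set 3, which changes the spread and not the difference, both *Nr0b1* calls were lost (adjusted p 0.0628 to 0.0721). The call against SP was also lost without SP of set 2 (0.0526) or set 3 (0.253), and the call against 3p without 3p of set 3 (0.336). *Klf2* missed the threshold against SP (0.44, 0.17 to 0.71; adjusted p = 0.0543) and 3p (0.42, 0.15 to 0.68; adjusted p = 0.0977), as did *Zfp42* (0.35 and 0.36; adjusted p = 0.101 and 0.126). Of the others, *Prdm14*, *Tfcp2l1* and *Esrrb* were also higher by estimate under 5p than under SP, by 0.33 (−0.01 to 0.66), 0.17 (−0.01 to 0.36) and 0.15 (−0.06 to 0.36). *Tbx3*, *Klf5*, *Klf4* and *Dppa3* stood at 0.12, 0.07, 0.00 and −0.02, with intervals inside −0.30 to 0.35. Leaving out single libraries moved the number of members called for 5p minus SP and for 5p minus 3p. The share of all genes called in those fits was not taken.

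Between SATS and SP, and between SATS and 5p, 1 member of 10 was called, which does not set the members apart from all genes. The member was *Dppa3*. It was higher under SATS than under SP by 0.61 (0.32 to 0.89; limma adjusted p = 0.0145), the 1 member called where 9.42% of all genes were, and higher than under 5p by 0.63 (0.34 to 0.91; adjusted p = 0.0145), the 1 member called where 6.42% were. Without SATS of set 3 these were 0.38 and 0.40, and neither was called (limma adjusted p = 0.24 and 0.262). The *Dppa3* call against SP was also lost without SP of set 2 (0.0914) or set 3 (0.105), and the call against 5p without 5p of set 3 (0.168). *Nr0b1* was 0.46 lower under SATS than under 5p (adjusted p = 0.114). SATS left *Stag1* at a higher level than SP, and whether that level bears on the members was not tested. No member other than *Dppa3* was called between SATS and SP, with intervals that allow sizeable differences. *Prdm14* and *Nr0b1* were higher under SATS by 0.26 (−0.08 to 0.59) and 0.22 (−0.13 to 0.57), *Klf2* by 0.13 (−0.14 to 0.40) and *Zfp42* by 0.09 (−0.16 to 0.34). *Klf4* was lower by estimate, at −0.14 (−0.40 to 0.13), and *Tfcp2l1*, *Esrrb*, *Tbx3* and *Klf5* stood at −0.09, −0.04, 0.00 and 0.03, with intervals inside −0.28 to 0.24. The number of members called for SATS minus 5p also moved when single libraries were left out, and the share of all genes called was not taken there either.

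**Figure D3:**
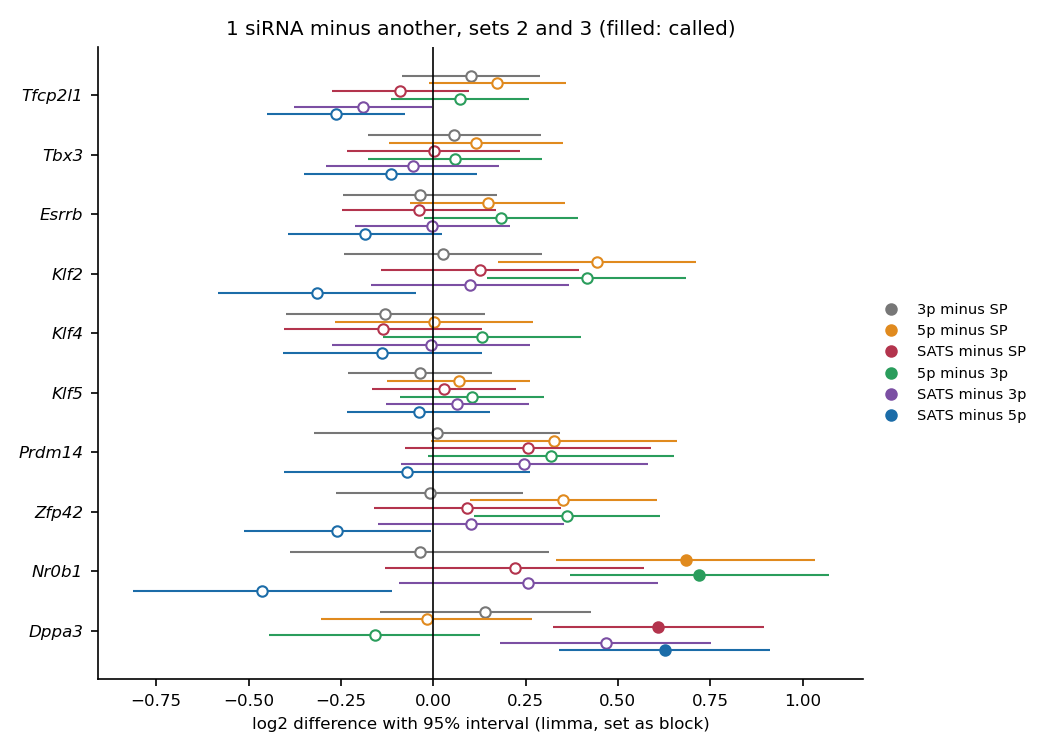
Log2 differences of each naive factor between 2 siRNAs, for the 6 pairs, with 95% intervals from limma with the set as a block. The 4 filled points are called: *Nr0b1* under 5p against SP and against 3p, and *Dppa3* under SATS against SP and against 5p. Intervals of 3p minus SP cross 0 for all 10 members.

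Within an siRNA, the order of the members could hardly be told. Under SP it ran from *Prdm14* (−0.67) over *Tbx3*, *Tfcp2l1*, *Nr0b1*, *Klf2*, *Esrrb*, *Klf4*, *Zfp42* and *Klf5* to *Dppa3* (0.14), and of the 9 neighbouring pairs 1, *Klf5* and *Dppa3*, was further apart than the larger SE. Under 3p that held for 2 pairs, *Prdm14* and *Nr0b1* as well as *Klf5* and *Dppa3*, under 5p for 1, *Klf5* and *Klf2*, and under SATS for 1, *Zfp42* and *Dppa3*. The mean difference of the 4 KDs from scr was compared between the sets by an interaction term. It called no member and no gene (0% of 16490 genes by limma, with 1 member, *Klf5*, and 556 genes at an unadjusted p under 0.05), and edgeR called 0 members. *Klf5* was lower by a further 0.32 in set 3 than in set 2 (95% interval −0.58 to −0.05; limma adjusted p = 0.9998).

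Set 1, which holds SP alone, gave the largest distances from scr. *Tbx3* stood at 2792 in scr and 1542, 482 and 177 in SP libraries 1a, 1b and 1c, and *Esrrb* stood at 9523 and 5467, 3615 and 2835. *Tfcp2l1* stood at 8143 and 3535, 2464 and 2392, and *Prdm14* at 348 and 122, 80.4 and 80.5. *Dppa3* stood at 40.2 and 132, 119 and 306. For 9 members all 3 SP libraries were below scr, and 8 of the 10 were lowest in 1c, which had the fewest reads. The members' median log2 difference from scr was −0.81, −1.22 and −1.67 in 1a, 1b and 1c, while the median of all 11058 genes was 0.00, 0.00 and 0.02. *Stag1* itself was no lower in 1c (660) than in 1a (512) and 1b (627).

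The reads behind these values were few for the low members. *Dppa3* rested on 6 reads in scr of set 1 and 28, 37 and 38 in SP, *Prdm14* on 52 and 26, 25 and 10, and *Tbx3* on 417 and 328, 150 and 22, whereas *Esrrb* rested on 352 to 1422. *Fgf5*, a gene of the primed state, stood at 46.9 in scr and 51.7, 129 and 330 in 1a, 1b and 1c, on 7 to 41 reads. SP was also compared with scr over 3 sets, taking the mean of 1a, 1b and 1c as 1 sample. The log2 differences were −1.07 ± 0.27 (SE, *Prdm14*), −0.99 ± 0.28 (*Tbx3*), −0.84 ± 0.21 (*Tfcp2l1*), −0.69 ± 0.19 (*Klf2*), −0.65 ± 0.18 (*Esrrb*), −0.61 ± 0.22 (*Klf4*), −0.54 ± 0.10 (*Nr0b1*), −0.41 ± 0.12 (*Zfp42*), −0.36 ± 0.12 (*Klf5*) and 0.82 ± 0.40 (*Dppa3*). limma called no member here and no gene (0% of 15970), although 9 members and 935 genes (5.85%) passed an unadjusted p under 0.05. edgeR on the recovered reads called 6 members and 0.413% of genes: *Tfcp2l1*, *Tbx3*, *Esrrb*, *Klf2*, *Prdm14* and *Nr0b1*, with adjusted p from 0.00304 to 0.0189. In limma, leaving out set 1 scr leaves only scr and SP of sets 2 and 3 for the contrast, at the differences given above. That fit gave 6 calls, where the fit of all 10 libraries of sets 2 and 3 gave 2 for the same contrast. Its spread came from fewer libraries and its share of all genes called was not taken. Those 6 calls therefore do not back the calls of edgeR. Without set 1 the median member difference under SP was −0.38 in place of −0.63, with the calls on *Tfcp2l1* and *Tbx3* given above.

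**Figure D4:**
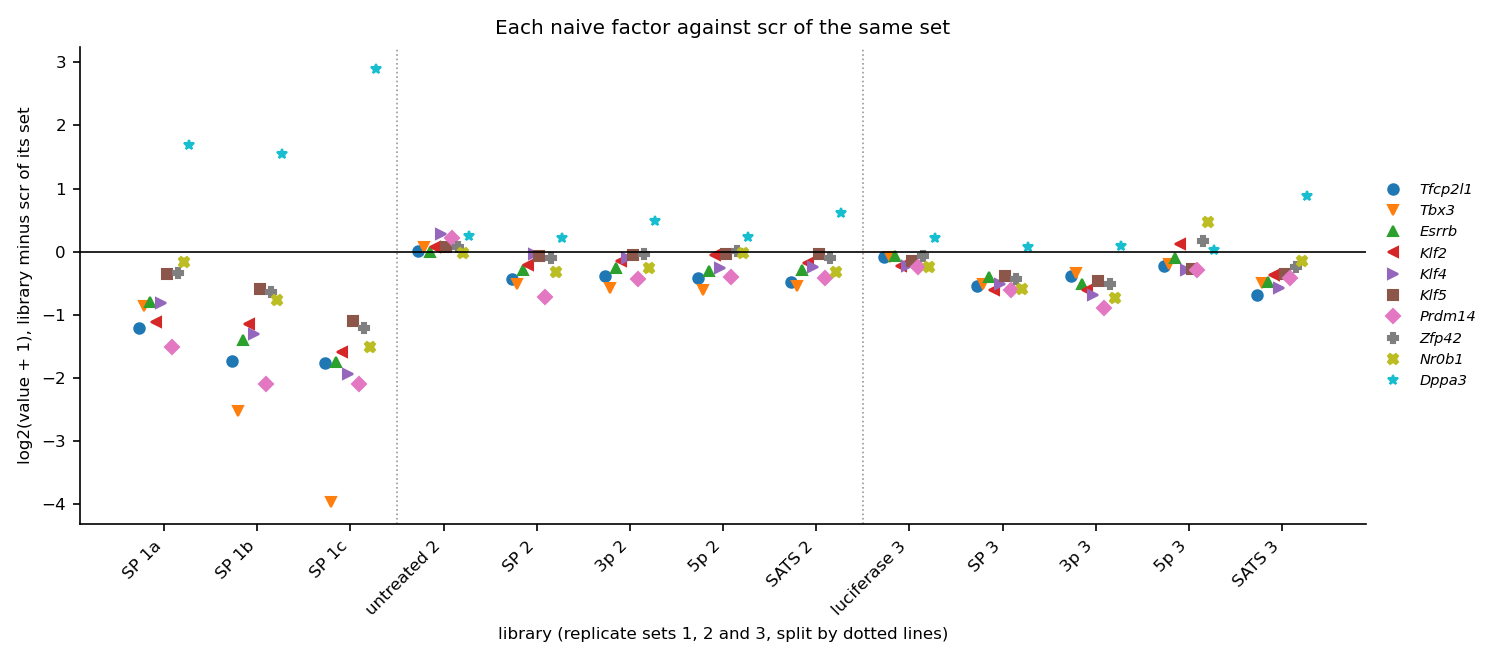
Log2 difference of each naive factor from scr of the same set, in the 13 libraries other than scr, with replicate sets split by dotted lines. Set 1 (SP libraries 1a to 1c) reaches −3.97 for *Tbx3* and 2.90 for *Dppa3*, sets 2 and 3 stay between −0.89 and 0.89, and the untreated and luciferase controls stay between −0.24 and 0.28.

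The members other than *Dppa3* moved together across libraries. With each set centred on its own mean, the 36 pairs of members other than *Dppa3* all correlated positively over the 12 libraries of sets 2 and 3 (Pearson r 0.44 to 0.98, median 0.77), and the 9 pairs with *Dppa3* all negatively (−0.63 to −0.14). *Esrrb* was most like the mean of the other members (r = 0.92), followed by *Prdm14* (0.90), *Klf2* (0.90), *Klf4* (0.86), *Zfp42* (0.86) and *Klf5* (0.86). *Tfcp2l1* (0.78), *Tbx3* (0.77) and *Nr0b1* (0.73) were less like it, and *Dppa3* stood at −0.38. These are descriptions, since the libraries of a set share their scr and their size factors. Correlations between pairs of other genes were not taken, so moving together is not shown to be particular to the members. Outside the members, the 5 genes of 11016 most like their mean were *1600002H07Rik* (r = 0.96), *Hmces* (0.96), *Elp3* (0.95), *Slc29a1* (0.94) and *Nubp2* (0.94). *Slc29a1*, a nucleoside transporter, stood at 2108 in scr and 1519 to 1590 in the KDs of set 2, and at 1444 and 792 to 1132 in set 3.

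The genes that feed the network were described from lists of pathway members. Of 9 genes of the LIF and Stat3 arm, 1 was called lower under SP, 3p and SATS, and in each case it was *Lifr*, the LIF receptor. *Lifr* stood at 1886 in scr of set 2 and 1300 (SP), 1290 (3p), 1879 (5p) and 1439 (SATS), and at 1557 in scr of set 3 and 1060, 976, 1595 and 1036. Its log2 differences were −0.55, −0.61 and −0.49 under SP, 3p and SATS (limma adjusted p of *Lifr* = 0.00667, 0.00503 and 0.0153), and 5p lay at the level of scr in both sets. Under 5p the 2 genes of this list called lower were *Pim1* (−0.51) and *Junb* (−0.45), both targets of Stat3. No gene of the Wnt and Tcf7l1 list (7 genes) was called under any siRNA, with list medians of 0.00, 0.03, −0.06 and −0.11 under SP, 3p, 5p and SATS.

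Of 7 ERK feedback genes, *Spry4* fell under 3p (−0.59) and SATS (−0.47). No gene of this list was called under SP, where *Spry4* stood at −0.47 (limma adjusted p = 0.0688), or under 5p, where it stood at −0.01. Of 13 other genes used as marks of naive cells, *Fgf4*, the main FGF ligand of ESCs, fell under 3p (−0.88; limma adjusted p = 0.00937), and none was called under the other siRNAs. *Fgf4* stood at −0.56 under SP (adjusted p = 0.0537), −0.34 under SATS and 0.10 under 5p, so the fall is not shown to differ between 3p and SP (adjusted p of the difference 0.685). The list's medians were −0.18 (SP), −0.16 (3p), 0.08 (5p) and −0.17 (SATS). Of 16 formative and primed genes, none was called higher under any siRNA in sets 2 and 3. *Fgf5* was called lower under 5p (−0.68) and *Etv4* under SATS (−0.37). Under SP the median of this list was −0.04 in sets 2 and 3, with 9 of 16 genes lower. Over sets 1 to 3 it was 0.36, with 2 of 16 lower and none called. In set 1 the list summed to 18067 in scr and to 22329, 28681 and 29516 in SP libraries 1a, 1b and 1c. Of 8 core genes, *Lin28a* fell under 5p (−0.68) and none was called under the others. *Nanog* stood at −0.34 (SP), −0.23 (3p), −0.07 (5p) and 0.00 (SATS) and *Pou5f1* at −0.08, −0.05, −0.08 and 0.02, with no call. *Nes*, *Tfap2c* and *Col1a1* of the neural, trophoblast and fibroblast lists were called lower under 5p (−0.54, −0.42 and −0.75), and no gene of the primitive endoderm, mesoderm or two-cell-like lists was called under any siRNA.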

How the data were processed

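Per the submitters' processing notes, alignment used HISAT2 on mm10 and gene counting used featureCounts. The authors then scaled by DESeq2 1.14.1 size factors, so the deposited values are a normalized signal per gene and not counts. Dividing by the value of 1 read gave whole reads for 100% of the values (within 0.001 reads). Depth was computed from these reads, which bounds counting error only. A second deposited table, of set 1 alone, was not used here, and neither were the 2i samples.

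The log2(value + 1) of the deposited signal was modelled in limma 3.58.1 under R 4.3.3, using a moderated, trended variance and the set as a block, for genes whose values summed to 10 or more. Calls needed an adjusted p (Benjamini-Hochberg, all genes tested) under 0.05. The 10 libraries of scr, SP, 3p, 5p and SATS in sets 2 and 3 were fitted together, and SP against scr also over sets 1 to 3. The pseudocount of 1 shrinks differences of low genes. Set numbers come from the labels. Same-numbered samples deviated together (r 0.77 to 0.82 for SP and scr over 3 sets, 0.81 to 0.93 between groups of the panel, where 2 sets mirror each other). edgeR 4.0.16 (quasi-likelihood) was run on the recovered reads as an alternative, beside other pseudocounts, filters, scalings, controls and leaving out each library. Both fits were tested on simulated data. Named genes were the 10 members, *Stag1*, *Pou5f1*, *Sox2* and *Nanog*, list genes called against scr (at most 4 a list) and the 5 genes most like the members' mean. The members and the lists were chosen with earlier results of these data known. Exon lengths and positions are from GENCODE vM21, in which copies were sought among transcripts with blastn. Whether the counting used strand in every library is not given in the sources used here.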

Additional observations from a re-analysis of the deposited data

Results flagged for a closer look

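Of 20 groups of 5 SP libraries examined (the value and the log2 difference from scr of each of the 10 members), 1 held a library far from the others. *Prdm14* stood at 122 in SP library 1a, and at 66.9 to 80.5 in the other 4, so that the gap to the next library was 0.754 of the whole range (critical value 0.71). Chance alone flags about 1 group in 20. The value rests on 26 reads, and the log2 difference of *Prdm14* from scr in 1a was −1.50, within the range of the other SP libraries (−2.10 to −0.61).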

How the results depend on the processing

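Set numbers pair the libraries, and all calls rest on that pairing. With no replicate block the number of members called was 0 under SP and SATS and 0 for 5p minus SP, SATS minus SP, 5p minus 3p and SATS minus 5p. It was 0 in these 6 comparisons also with no filter on low values. The number called under SP was 1 at a pseudocount of 0.1, 1 at a pseudocount of 10 and 1 at a mean value of at least 50. With untreated and luciferase libraries added to scr it was 4 under SP, 4 under 3p, 2 under 5p and 5 under SATS. The share of all genes called there was 2.32%, 1.31%, 6.71% and 10.7%. Scaling to reads without *Rn45s* gave 2 for 5p minus SP and 2 for SATS minus 5p, where 6.07% and 6.78% of all genes were called. In 1 fit over sets 1 to 3 the number of members called was 0 under SATS, and edgeR gave 6 for SP over sets 1 to 3. The causes were not tested.

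Leaving out each library in turn, the number called ranged from 0 to 3 under SP, 0 to 1 under 3p, 0 to 0 under 5p, 0 to 5 under SATS, 0 to 3 for 5p minus SP, 0 to 1 for SATS minus SP, 0 to 3 for 5p minus 3p, 0 to 1 for SATS minus 3p, 0 to 4 for SATS minus 5p and 0 to 6 for SP over sets 1 to 3, where the 6 came without scr of set 1. A lone library left in a group was taken to vary like the others. The share of all genes called in these fits was not taken, so the ranges do not set the members apart from all genes. edgeR kept all 9 calls.

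Of 978 values under alternatives, 7 changed sign, all of 5p minus scr and none of them called: *Klf2* (−0.11 in 1 fit over sets 1 to 3, −0.07 without scr of set 2 and −0.18 without 5p of set 3), *Klf5* (0.0030 without scr of set 3), *Zfp42* (−0.01 without scr of set 2 and −0.11 without 5p of set 3) and *Nr0b1* (−0.094 without 5p of set 3). Over the libraries left out in turn, these ranged from −0.18 to 0.26 (*Klf2*), −0.31 to 0.0030 (*Klf5*), −0.11 to 0.28 (*Zfp42*) and −0.094 to 0.55 (*Nr0b1*). The interaction of KD with set could not be fitted without an scr library or without the block.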
